A study of Drosophila melanogaster with 12 samples.

Results

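The genes described here carry the adipokinetic hormone and insulin-like peptide signals of *Drosophila melanogaster*. They are 10 genes chosen by name, *Akh*, *AkhR*, *Ilp2*, *Ilp3*, *Ilp5*, *Ilp6*, *Ilp8*, *ImpL2*, *InR* and *Thor*, out of 17807 gene symbols with counts, and all 10 passed the filter on low counts in every comparison. Their mRNA was measured by RNA-seq in 12 libraries of whole adult flies, in 4 groups of 3 replicates with 20 flies each: *da-GAL4>UAS-bmm* males, *da-GAL4/+* control males, *da-GAL4>UAS-bmm* females and *da-GAL4/+* control females. The *bmm* overexpression flies carry *daughterless*-GAL4, a driver active in most tissues, and a *UAS-bmm* insertion, and *bmm* (*brummer*) encodes the main triglyceride lipase of the fly. The controls carry the same driver without the insertion. All flies ate SY10/10 food, had 48 hours to mature and mate before the sexes were separated, and were frozen at an age that the labels do not give. No libraries of flies with the *UAS-bmm* insertion alone were analysed here, so the insertion and the overexpression cannot be told apart.

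Adipokinetic hormone is a peptide of the corpora cardiaca, neuroendocrine cells attached to the brain, and acts much as glucagon does in mammals. Through its receptor on fat body cells it mobilises stored lipid and carbohydrate. The insulin-like peptides act in the opposite sense by activating the insulin receptor, which promotes growth and storage and holds the transcription factor foxo out of the nucleus. When insulin signalling is low, foxo enters the nucleus and raises the transcription of several genes, among them *Thor* and *InR*.

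Of the 10 genes, 5 encode peptides of the insulin family. *Ilp2*, *Ilp3* and *Ilp5* are expressed mainly in the insulin-producing cells of the brain and *Ilp6* mainly in the fat body. *Ilp8* encodes a peptide that acts through the relaxin-type receptor Lgr3 and is made in larval imaginal discs and in adult ovaries. *ImpL2* encodes a secreted protein that binds insulin-like peptides and limits their action. *InR* encodes the insulin receptor, and *Thor* encodes 4E-BP, which represses translation.

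In the BDGP6.54 annotation, a later release than the BDGP6.28 used for counting, *Ilp2* (3L:9799698-9800440, plus strand) and *Ilp3* (3L:9801298-9802120, minus strand) lay 857 bases apart, and *Ilp5* (3L:9823349-9823897, minus strand) followed 21228 bases further on. *Akh* (3L:4141467-4142070, plus strand), *ImpL2* (3L:4224006-4236147, minus strand) and *Ilp8* (3L:17029812-17032080, minus strand) also mapped to 3L. *AkhR* (2L:6711286-6716186, minus strand) and *Thor* (2L:3478434-3479612, plus strand) mapped to 2L, *InR* to 3R:21570248-21619321 (minus strand) and *Ilp6* to X:2331493-2334658 (minus strand). From start to end, *Akh*, *AkhR* and *Thor* overlapped no other gene. The spans of the others, introns included, did. They met *CG32052* for *Ilp2* and *Ilp3*, *CG43897* for *Ilp5*, *Raf* for *Ilp6*, and *CG7730* and a long non-coding RNA for *Ilp8*. *ImpL2* met *CG46460*, and *InR* met 2 long non-coding RNAs and 2 transposable elements. Whether exons overlapped was not examined. The libraries were stranded, but the strand setting of the counting is not stated. Where exons overlap, part of the reads of these 7 genes may therefore be shared or lost.

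The total count was between 20068187 and 34799635 per library, and 3 counts corresponded to between 0.0798 and 0.156 CPM, the deposited level scaled for library size. *bmm* averaged 11241 ± 737 CPM in *bmm* overexpression males and 300.1 ± 152 CPM in control males, and in females 4791 ± 334 CPM with *bmm* overexpression and 139 ± 8.02 CPM in controls (SD, n = 3 each), with every overexpression library above every control library of its sex. Control male replicate 1 stood apart. It held *bmm* at 474 CPM, against 234 and 192 CPM in the other control males, and 23 yolk protein, vitelline membrane and chorion genes at a median of 4.90% of their mean in control females. That share was 1.16% and 0.573% in control male replicates 2 and 3. The *bmm* overexpression males held these genes at medians of 0.205%, 0.144% and 0.157% of their mean in *bmm* overexpression females. Results in males are therefore also given without this library where that changed a call or moved a called value by more than 1.5 times.

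**Figure D1:**
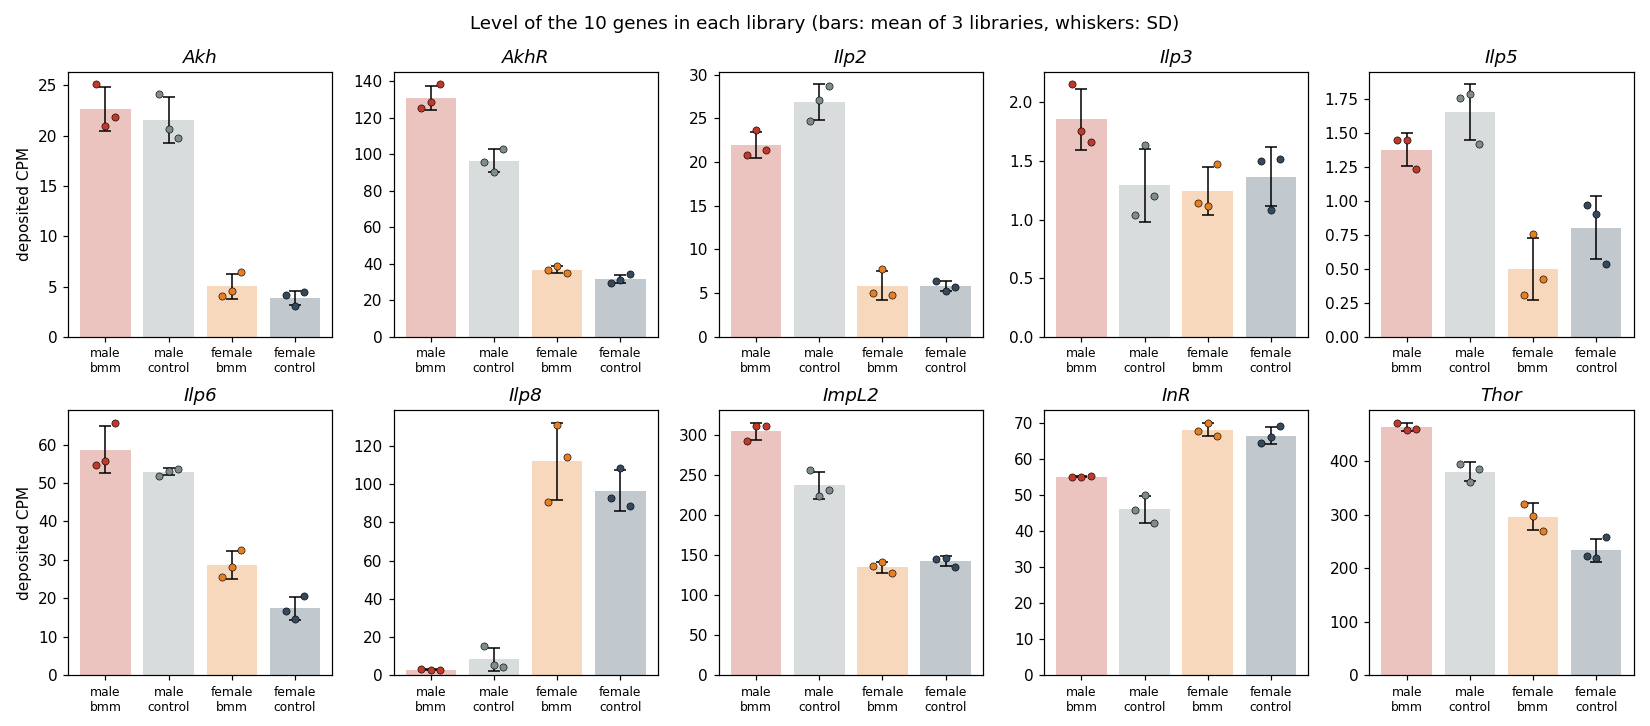
Deposited CPM (linear axes that start at 0) of each of the 10 genes in the 12 libraries, with a bar for the mean and whiskers for the SD of the 3 libraries of each group. *AkhR*, *Ilp3*, *Ilp6*, *ImpL2*, *InR* and *Thor* lay higher in all 3 *bmm* overexpression males than in all 3 control males, and *Ilp2* and *Ilp8* lay lower. Of these, only *AkhR*, *ImpL2* and *Ilp8* were called in males. *AkhR*, *Ilp6* and *Thor* lay higher in all 3 *bmm* overexpression females than in all 3 control females. *Ilp8* was at 2.67 to 15.1 CPM in males, against 88.5 to 131 CPM in females.

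*bmm* overexpression was first compared with control within each sex, to see which signals differed in flies made to express more lipase. In males, *AkhR* and *ImpL2* were higher and *Ilp8* was lower. In females, *Ilp6*, *Thor* and *AkhR* were higher and no gene of the set was called lower, though 3 of the 10 had negative log2 fold changes. Calls rest on an adjusted p-value under 0.05 in the exact test of edgeR, the test of the study. The stricter quasi-likelihood test of edgeR kept 2 of the 3 calls in each sex, and its adjusted p is given beside each called gene of the set. In males 3 of the 10 genes were called, where 4.31% of the 13632 tested genes were called, 1.92% higher and 2.38% lower. In females 3 of 10 were called, all higher, where 14.3% of the 10488 tested genes were called and 9.81% were called higher. With the study's further limit of a log2 fold change over 1 in size, *Ilp8* in males alone remained of the 10, where 1.50% of all genes in males and 1.40% in females passed. The groups did not overlap for 8 of 10 genes in males, beside 22.9% of all tested genes, and for 3 of 10 in females, beside 36.4%. The median log2 fold change of the 10 genes was 0.19 in males and 0.15 in females, beside −0.01 over all tested genes in both. In whole flies, fewer cells of a type and less RNA per cell cannot be told apart. Ovarian germline markers moved with the female comparison, with 6 of 9 called lower (median −0.18) and 1 of 9 positive. Over all 10488 tested genes in females, 467 were called lower. The summed level of these markers was 1796 to 1895 CPM in *bmm* overexpression females and 2043 to 2262 CPM in control females. Of 23 yolk protein, vitelline membrane and chorion genes, 3 were called lower in females, 22 were negative and 1 was positive (median −0.16). The part of the germline markers and egg genes in the female results was not tested.

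**Figure D2:**
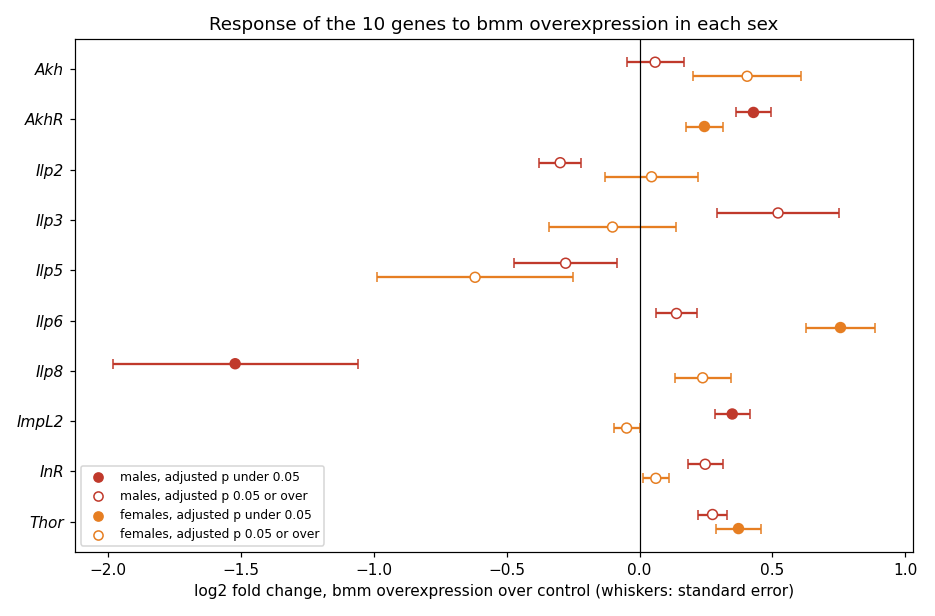
Log2 fold change of *bmm* overexpression over control for the 10 genes in males and females, with whiskers for the standard error and filled points where the adjusted p-value was under 0.05. *AkhR* is filled in both sexes, *Ilp6* and *Thor* only in females, and *ImpL2* and *Ilp8* only in males.

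*Akh*, the gene of the hormone, had levels of 25.1, 21.0 and 21.8 CPM in *bmm* overexpression males, against 24.1, 20.7 and 19.7 CPM in control males. Female levels were 4.10, 4.53 and 6.40 CPM with *bmm* overexpression, against 4.11, 3.10 and 4.41 CPM in controls. The groups overlapped in both sexes, with log2 fold changes of 0.06 (SE 0.11, adjusted p = 0.970) in males and 0.40 (SE 0.20, adjusted p = 0.217) in females. Replicate 3 of the overexpression females was the highest female library.

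*AkhR*, which encodes the receptor of the hormone, was higher with *bmm* overexpression in both sexes. It was at 125, 129 and 138 CPM in *bmm* overexpression males, against 95.8, 90.2 and 103 CPM in control males. Female levels were 36.5, 38.9 and 34.95 CPM with *bmm* overexpression, against 29.6, 31.0 and 34.2 CPM in controls. No overexpression library overlapped a control library in either sex, though the nearest female libraries differed by less than 1 CPM. The log2 fold change was 0.43 (SE 0.07, adjusted p = 0.00100, and 0.0240 in the quasi-likelihood test) in males and 0.24 (SE 0.07, adjusted p = 0.0372) in females. The female call was narrow, with an adjusted p of 0.0512 in the quasi-likelihood test, and was also lost without *bmm* overexpression replicate 1 (0.0999) or 2 (0.148) or control replicate 1 (0.108) or 2 (0.165). The male call held in all alternatives run. The summed level of the fat body markers, the tissue in which *AkhR* is best known, overlapped between the groups, at 11362 to 12867 CPM in *bmm* overexpression males and 11057 to 12869 CPM in control males, and in females at 5696 to 6610 CPM with *bmm* overexpression and 5489 to 6533 CPM in controls. The 7 tested markers went both ways, 3 positive and 4 negative in males, and 5 positive and 2 negative in females. Of them, *Lsp2*, which encodes a larval serum protein, fell in males (log2 fold change −1.14, adjusted p = 6.48e-04, and 0.0625 in the quasi-likelihood test) and *Desat1*, a fatty acid desaturase gene, rose in females (0.24, adjusted p = 0.0104). The part of the fat body in the *AkhR* values was not tested.

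Among the peptides of the insulin-producing cells, *Ilp2* had the highest level. It was at 20.9, 23.6 and 21.4 CPM in *bmm* overexpression males, against 24.7, 27.1 and 28.8 CPM in control males, and the groups did not overlap. The log2 fold change was −0.30 (SE 0.08, adjusted p = 0.114), which missed the threshold. Without control male replicate 1 it was −0.35 with an adjusted p of 0.0305. In females *Ilp2* was at 4.98, 7.78 and 4.82 CPM with *bmm* overexpression, against 6.38, 5.29 and 5.69 CPM in controls, with a log2 fold change of 0.05 (SE 0.18, adjusted p = 0.927).

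*Ilp3* and *Ilp5* were the scarcest of the 10 genes, with 22 to 64 counts per library for *Ilp3* and 6 to 66 for *Ilp5*, so that only large differences could be detected. *Ilp3* was at 2.15, 1.75 and 1.66 CPM in *bmm* overexpression males, against 1.04, 1.64 and 1.21 CPM in control males (log2 fold change 0.52, SE 0.23, adjusted p = 0.420). All 3 overexpression males lay above all 3 control males, the lowest of them only just, and the difference did not pass. In females *Ilp3* was at 1.14, 1.12 and 1.48 CPM with *bmm* overexpression, against 1.50, 1.08 and 1.52 CPM in controls (log2 fold change −0.10, SE 0.24, adjusted p = 0.859). *Ilp5* was at 1.45, 1.45 and 1.24 CPM in *bmm* overexpression males, against 1.76, 1.79 and 1.42 CPM in control males (log2 fold change −0.28, SE 0.19, adjusted p = 0.801). In females *Ilp5* was at 0.311, 0.755 and 0.427 CPM with *bmm* overexpression, against 0.969, 0.905 and 0.539 CPM in controls (log2 fold change −0.62, SE 0.37, adjusted p = 0.264). The groups overlapped for *Ilp5* in both sexes and for *Ilp3* in females.

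Read per kilobase of exon, so that genes can be compared, *Ilp2* made up 84.1% to 87.0% of the sum of *Ilp2*, *Ilp3* and *Ilp5* in *bmm* overexpression males and 87.2% to 90.4% in control males. In females it made up 71.6% to 79.1% with *bmm* overexpression and 70.3% to 73.0% in controls. The share of *Ilp3* averaged 6.50% ± 1.09 in *bmm* overexpression males and 3.79% ± 0.794 in control males (SD, n = 3 each) and did not overlap between these groups. In a two-sided exact permutation test its p was 0.1, the smallest that 3 against 3 libraries allow, and the adjusted p over 6 such tests was 0.3. None of the 6 shares could therefore pass.

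*Ilp6*, the fat body peptide, had the largest called log2 fold change of the set in females. It was at 25.4, 28.2 and 32.6 CPM in *bmm* overexpression females, against 16.8, 14.7 and 20.6 CPM in control females. All overexpression libraries lay above all controls, with a log2 fold change of 0.76 (SE 0.13, 1.69-fold, adjusted p = 3.72e-06, and 0.00739 in the quasi-likelihood test). Male levels were 54.7, 55.7 and 65.7 CPM with *bmm* overexpression, against 51.9, 53.1 and 53.7 CPM in controls. The male groups did not overlap either, but 2 of the 3 overexpression males lay within 3 CPM of the controls, and the log2 fold change of 0.14 (SE 0.08, adjusted p = 0.693) did not pass.

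*ImpL2*, whose product binds insulin-like peptides, rose in males. It was at 292, 311 and 311 CPM in *bmm* overexpression males, against 256, 224 and 231 CPM in control males, without overlap and with a log2 fold change of 0.35 (SE 0.07, adjusted p = 0.0223, and 0.0464 in the quasi-likelihood test). The call was lost without any 1 of the *bmm* overexpression replicates or without control replicate 2 or 3, where the adjusted p ran between 0.0878 and 0.201, but the fold change stayed between 0.31 and 0.42. In females *ImpL2* was at 136, 141 and 128 CPM with *bmm* overexpression, against 146, 146 and 135 CPM in controls (log2 fold change −0.05, SE 0.05, adjusted p = 0.663), and the groups overlapped. The ratio of *ImpL2* to *Ilp6* in CPM was 3.91 to 5.35 in *bmm* overexpression females and 6.53 to 9.96 in control females. It was 4.73 to 5.58 in *bmm* overexpression males and 4.22 to 4.93 in control males, a description with no test.

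*InR* was at 55.1, 55.1 and 55.5 CPM in *bmm* overexpression males, against 46.0, 50.01 and 42.4 CPM in control males. The groups did not overlap, and the log2 fold change of 0.25 (SE 0.07, adjusted p = 0.129) missed the threshold. Female libraries held 68.0, 70.2 and 66.6 CPM with *bmm* overexpression, against 64.4, 66.2 and 69.2 CPM in controls (log2 fold change 0.06, SE 0.05, adjusted p = 0.589).

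*Thor*, a widely used readout of foxo activity, was at 321, 298 and 270 CPM in *bmm* overexpression females, against 223, 219 and 258 CPM in control females. The groups did not overlap, and the log2 fold change was 0.37 (SE 0.08, adjusted p = 0.00126, and 0.0234 in the quasi-likelihood test). Male levels were 472, 458 and 461 CPM with *bmm* overexpression, against 396, 360 and 385 CPM in controls, again without overlap. The male log2 fold change was 0.27 (SE 0.05, adjusted p = 0.0771), and it passed without control male replicate 1 (0.31, adjusted p = 0.0248) and in DESeq2 (0.27, adjusted p = 6.29e-04).

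*Ilp8* had the largest difference of the set. It was at 3.30, 2.75 and 2.67 CPM in *bmm* overexpression males, against 15.1, 5.36 and 4.22 CPM in control males. Every overexpression male lay below every control male, and the control group was spread over more than 10 CPM by its replicate 1. The log2 fold change was −1.52 (SE 0.46, adjusted p = 0.0314) and −0.72 without that library (adjusted p = 0.0173). The call did not hold in the quasi-likelihood test (adjusted p = 0.143), in DESeq2 (0.115), or without *bmm* overexpression replicate 1 (0.142), 2 (0.232) or 3 (0.234). Female levels were 90.9, 131 and 114 CPM with *bmm* overexpression, against 92.7, 109 and 88.5 CPM in controls (log2 fold change 0.24, SE 0.11, adjusted p = 0.156), with overlap. The female value passed without *bmm* overexpression replicate 1 (0.36, adjusted p = 0.00558).

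The male difference of *Ilp8* went along with that of egg genes. All 22 tested genes for yolk proteins, vitelline membrane and chorion were lower in *bmm* overexpression males than in control males, with a median log2 fold change of −3.94. In the quasi-likelihood test their adjusted p ran between 0.0375 and 0.169, so part of them did not pass there. Without control male replicate 1, a setting chosen after seeing the data, 21 of the 22 were called lower by the exact test and the median was −2.64. *Ilp8* stood at 2.94%, 2.45% and 2.38% of its female mean in the *bmm* overexpression males, and at 15.6%, 5.55% and 4.37% in the control males, so that it exceeded the median share of the egg genes in each male library. At the median egg gene share, the female level would correspond to 4.73, 1.13 and 0.553 CPM of *Ilp8* in control males 1, 2 and 3, less than the 15.1, 5.36 and 4.22 CPM measured. The part of egg RNA in the *Ilp8* result was not tested.

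**Figure D3:**
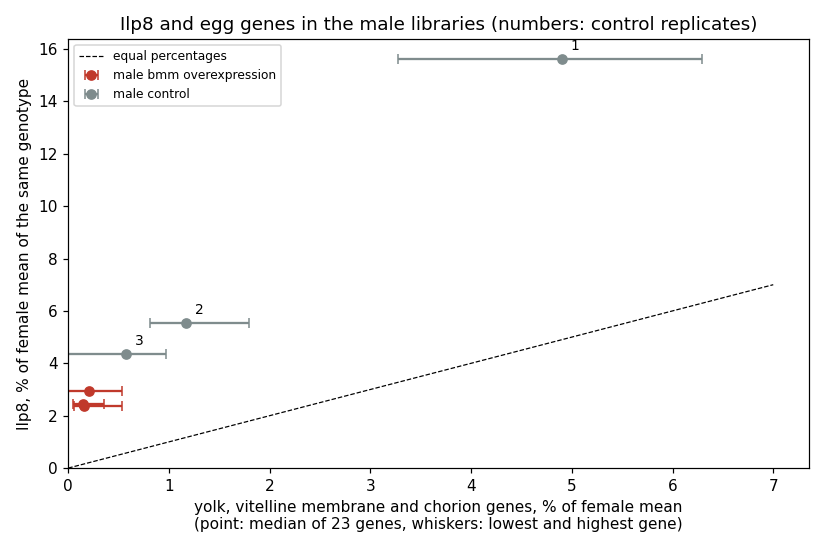
Level of *Ilp8* (vertical axis) and of 23 yolk, vitelline membrane and chorion genes (horizontal axis, median as point, lowest and highest gene as whiskers) in the 6 male libraries, each as a percentage of the mean in females of the same genotype. Control male replicate 1 stands apart at 15.6% for *Ilp8* and 4.90% for the egg genes, and all 6 libraries lie above the dashed line of equal percentages.

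Whether the response to *bmm* overexpression differed between males and females was asked with an interaction term for genotype and sex, by the quasi-likelihood test of edgeR on all 12 libraries. None of the 10 genes passed, where 2.91% of the 13988 tested genes did. At an unadjusted p under 0.05, 3 of 10 did, beside 15.8% of all genes. The 3 were *Ilp6* (male minus female log2 fold change −0.66, SE 0.17, adjusted p = 0.0606), *ImpL2* (0.36, SE 0.10, adjusted p = 0.0694) and *Ilp8* (−1.84, SE 0.52, adjusted p = 0.0842). DESeq2 called 2 of the 10, *Ilp6* (−0.60, adjusted p = 0.0172) and *ImpL2* (0.42, adjusted p = 0.00159). Without control male replicate 1, *ImpL2* (0.46, adjusted p = 0.00430) and *Ilp8* (−0.97, adjusted p = 0.0303) passed. For *AkhR* the difference was 0.15 (SE 0.10, adjusted p = 0.545) and for *Thor* −0.14 (SE 0.12, adjusted p = 0.670), so a call in 1 sex only does not set the sexes apart for *Thor*.

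The sexes differed far more than the genotypes. Between control males and control females 9 of the 10 genes were called, 7 higher and 2 lower in males, where 91.7% of all tested genes were called, 52.8% higher and 38.9% lower. Between *bmm* overexpression males and females all 10 were called, 8 higher and 2 lower, where 91.8% of all tested genes were called, 52.5% higher and 39.3% lower. These counts are near the background, so the sizes are what can be read. The median of all tested genes was 0.42 on the log2 scale in *bmm* overexpression flies and 0.49 in controls, and it was 0.53 and 0.61 with the size factors of DESeq2 and 0.61 and 0.74 with library size alone, so differences are given beside it.

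*Akh* and *Ilp2*, both made in few neuroendocrine cells, were furthest above that median. In control flies *Akh* was higher in males by 2.49 on the log2 scale (SE 0.15), 2.00 above the median of all genes, and *Ilp2* by 2.22 (SE 0.10), 1.73 above it. In *bmm* overexpression flies the values were 2.16 (SE 0.15) for *Akh* and 1.90 (SE 0.16) for *Ilp2*. *AkhR*, at 1.83 (SE 0.07), lay close to *Ilp2* there. The 10 neuron markers had a median of 2.23 in *bmm* overexpression flies and 2.34 in controls, and 21 other neuropeptide genes had one of 2.06 and 2.14. Of the 10 neuron markers, 8 were higher and 2 were lower in males in each genotype. *Akh* and *Ilp2* thus stood near the medians of neuronal genes. The summed neuron markers were at 1570 to 1600 CPM in *bmm* overexpression males and 519 to 545 CPM in *bmm* overexpression females. With the control genotype they were at 1374 to 1484 CPM in males and 480 to 526 CPM in females. Their part in the *Akh* and *Ilp2* values was not tested.

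The other peptides of the insulin-producing cells stood closer to the median of all genes. *Ilp5* was higher in males by 1.40 (SE 0.31) with *bmm* overexpression and 1.05 (SE 0.26) in controls. *Ilp3* differed by 0.56 (SE 0.22, adjusted p = 0.0192) with *bmm* overexpression, a call lost without 4 of the 6 libraries in turn, among them *bmm* overexpression male replicate 1 (0.38, adjusted p = 0.167). In controls it differed by −0.08 (SE 0.25, adjusted p = 0.826), a sign that turned with library size alone (0.17) and with the size factors of DESeq2 (0.03).

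*AkhR* was higher in males by 1.83 (SE 0.07) with *bmm* overexpression and 1.62 (SE 0.08) in controls. *Ilp6* was higher by 1.03 (SE 0.10) with *bmm* overexpression and 1.62 (SE 0.12) in controls. The 7 tested fat body markers had a median of 1.04 with *bmm* overexpression and 0.94 in controls. They were spread widely, between −0.29 and 2.05 with *bmm* overexpression and between −0.21 and 2.25 in controls, with 6 positive and 1 negative in each genotype. *ImpL2* was higher in males by 1.18 (SE 0.06) with *bmm* overexpression and 0.75 (SE 0.07) in controls, and *Thor* by 0.65 (SE 0.07) with *bmm* overexpression and 0.72 (SE 0.08) in controls, in controls 0.23 above the median of all genes.

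*InR* and *Ilp8* were the genes lower in males. *InR* fell by 0.31 (SE 0.06) with *bmm* overexpression and by 0.52 (SE 0.07) in controls on the log2 scale. The first of these did not pass with library size alone (−0.12, adjusted p = 0.117). *Ilp8*, which adult ovaries express, was lower in males by −5.27 (SE 0.15) with *bmm* overexpression and −3.53 (SE 0.44) in controls, where it was −4.33 without control male replicate 1. The egg genes had a median of −9.25 with *bmm* overexpression and −5.48 in controls, or −6.80 without that library.

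**Figure D4:**
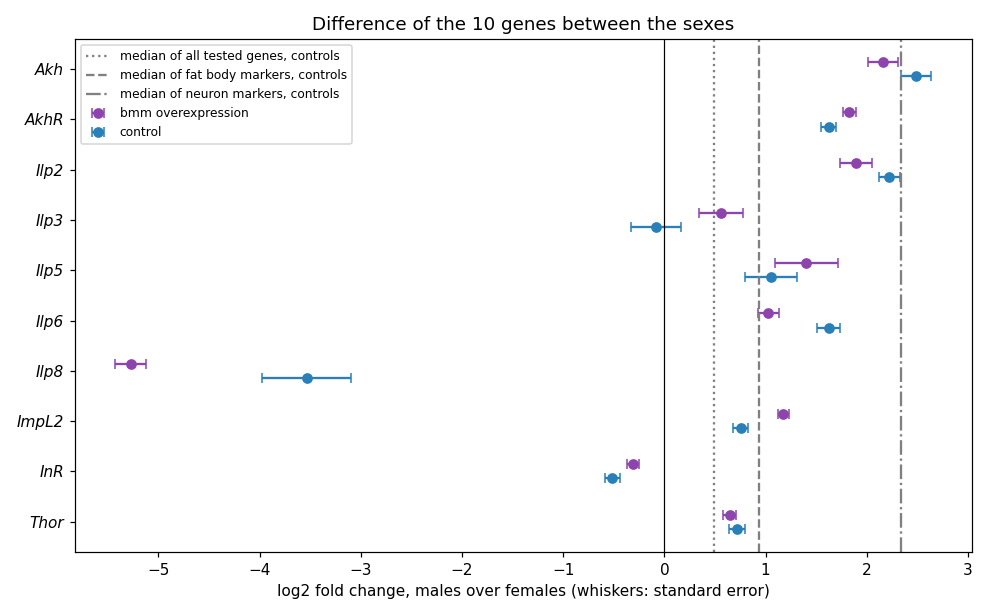
Log2 fold change of males over females for the 10 genes in *bmm* overexpression and control flies, with whiskers for the standard error and vertical lines for the control medians of all tested genes (0.49), fat body markers (0.94) and neuron markers (2.34). *Akh* and *Ilp2* lie near the neuron line in controls, *Ilp8* lies at −5.27 and −3.53, and *InR* lies below 0 in both genotypes.

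Per kilobase of exon, *Thor* had the highest level of the 10 in each group, at 614 ± 9.78 CPM per kilobase in *bmm* overexpression males, 504 ± 23.8 in control males, 393 ± 33.8 in *bmm* overexpression females and 309 ± 28.6 in control females (SD, n = 3 each). *ImpL2* (114 ± 3.96 and 88.9 ± 6.25) and *Akh* (42.2 ± 4.04 and 40.1 ± 4.26) followed in *bmm* overexpression and control males, where *Akh* did not differ beyond the spread from *AkhR* (41.1 ± 2.09) in the overexpression flies or from *Ilp2* (40.1 ± 3.03) in the controls. In females *Ilp8* (129 ± 23.3 with *bmm* overexpression and 111 ± 12.3 in controls) and *ImpL2* (50.6 ± 2.55 and 53.3 ± 2.39) followed *Thor*. *Ilp3* and *Ilp5* were last in all 4 groups, with 1.04 to 3.46 CPM per kilobase.

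The genes around these signals were read from lists chosen by function, with earlier results of these data known. Their counts stand beside the 4.31% of all tested genes called in males and the 14.3% called in females. The TOR kinase is a growth regulator downstream of insulin. Of 18 genes of insulin receptor and TOR signalling, none was called in males (median 0.02) and 1 in females (median −0.04). It was *raptor*, a subunit of TOR complex 1, which fell by 0.21 on the log2 scale (adjusted p = 0.0118). Of 13 genes of adipokinetic hormone receptor signalling and its targets, the same 1, *Lsd-1*, was called in both sexes, each time higher. The 13 had a median of 0.09 in males, with 11 positive and 2 negative, and of −0.0045 in females, with 5 positive and 8 negative. The lowest value in males, −0.49, was not called. *Lsd-1*, which encodes perilipin 1, a coat protein of lipid droplets through which the hormone acts, was at 558, 582 and 627 CPM in *bmm* overexpression males, against 413, 293 and 425 CPM in control males (log2 fold change 0.63, SE 0.13, adjusted p = 0.00266, and 0.0601 in the quasi-likelihood test). Female levels were 185, 176 and 167 CPM with *bmm* overexpression, against 140, 134 and 145 CPM in controls (0.36, SE 0.06, adjusted p = 9.41e-06). No library of 1 genotype overlapped the other in either sex.

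Of 5 tested foxo targets outside the set of genes chosen by name, 2 rose in males, and 1 rose and 1 fell in females. The list did not record whether foxo raises or lowers each of them, and foxo activity was not tested. Over all tested genes, 4.31% were called in males and 14.3% in females. *Lip4*, which encodes a lipase, was at 80.5, 96.1 and 90.7 CPM in *bmm* overexpression males, against 54.9, 52.8 and 57.5 CPM in control males (0.68, SE 0.07, adjusted p = 3.94e-09). Female levels were 37.0, 35.7 and 35.5 CPM with *bmm* overexpression, against 21.8, 18.7 and 23.7 CPM in controls (0.78, SE 0.09, adjusted p = 3.60e-12). *Lip4* was thus higher in both sexes with no overlap. *daw*, which encodes an activin-like ligand, rose in males (0.49, SE 0.13, adjusted p = 0.0249, and 0.104 in the quasi-likelihood test), and *srl*, the fly homolog of the mitochondrial coactivator PGC-1, fell by 0.21 in females (adjusted p = 0.00559). The list's median was 0.14 in males and −0.16 in females.

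Of the signals that reach the insulin-producing cells and the corpora cardiaca, 1 of 24 tested genes was called in males (median 0.02) and 5 of 23 in females (median 0.07), all higher. Over all tested genes, 1.92% in males and 9.81% in females were called higher. *Gbp2*, a growth-blocking peptide gene of the fat body, was at 103, 109 and 98.3 CPM in *bmm* overexpression females, against 83.9, 72.5 and 79.7 CPM in control females (0.42, SE 0.06, adjusted p = 4.06e-07). *Socs36E*, a feedback inhibitor of the JAK/STAT pathway that the leptin-like *upd2* activates, was at 20.8, 22.2 and 21.9 CPM in *bmm* overexpression females, against 15.2, 14.4 and 16.1 CPM in control females (0.53, SE 0.07, adjusted p = 5.99e-07). *Lst*, which encodes limostatin, a peptide of the corpora cardiaca that suppresses insulin secretion, was at 99.9, 117 and 99.3 CPM in *bmm* overexpression females, against 63.4, 76.3 and 84.7 CPM in control females (0.52, SE 0.10, adjusted p = 4.85e-05). None of these 3 genes had overlapping groups in females. *Gbp1* also rose in females (0.42, SE 0.11, adjusted p = 0.0135), and *sNPF*, the short neuropeptide F gene, rose in males (0.31, SE 0.06, adjusted p = 0.0200) and in females (0.33, SE 0.10, adjusted p = 0.0406, and 0.0549 in the quasi-likelihood test). In males the log2 fold change was −0.0034 for *Socs36E* and −0.02 for *Lst*, and for these 2 the interaction passed, at −0.57 (SE 0.12, adjusted p = 0.0267) and −0.57 (SE 0.13, adjusted p = 0.0360). None of the tested genes for other insulin-like ligands, binding proteins and relaxin-type receptors was called, 5 in males and 4 in females.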

How the data were processed

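Whole flies were sequenced as stranded mRNA libraries. Per the labels and the study's methods, the authors trimmed reads, aligned them to BDGP6.28 with HISAT2, marked duplicates with SAMtools, removed alignments with a mapping quality under 60 and made the deposited counts per gene with featureCounts from Subread. Versions and the strand setting are not given in the sources used here. A second deposited table holds a normalized signal, named CPM by the authors, for 14246 of 17807 symbols. In it the counts of each library are divided by 1 factor, and levels printed here come from it.

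From the counts, genes passing filterByExpr were scaled by TMM and tested per comparison with the exact test of edgeR 4.0.16 (R 4.3.3), with Benjamini-Hochberg adjustment over all tested genes. Standard errors and the interaction come from its quasi-likelihood test. DESeq2 1.42.0, limma 3.58.1 on log2(CPM + 1) or log2(CPM + 0.1), other size factors, no filter on low counts, a replicate block and each library left out were alternatives. The exact test used dispersions estimated with a design matrix. That choice was settled after counts over all genes had been seen, and the estimate without one was added as an alternative.

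The 10 genes and all lists were chosen with earlier results of these data known. All 10 genes were named, and of each list at most the 4 called genes with the smallest adjusted p per comparison. No 2 replicates agreed within sampling noise. The labels call the replicates biological, of 20 flies each, without saying whether the flies came from separate crosses or bottles, so p-values measure the spread between these samples. Counting limits cover counting error only. Methods were tested on simulated data, where the exact test made more false calls than its threshold allows and the quasi-likelihood test came closer to it, so narrow calls of the exact test should be read with the quasi-likelihood value.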

Additional observations from a re-analysis of the deposited data

How the results depend on the processing

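The number of called genes among the 10 depended on the test where calls were narrow. In females, 3 were called and limma on log2(CPM + 1) without a filter called 0 (*AkhR*, *Ilp6* and *Thor* lost, at adjusted p of 0.181, 0.111 and 0.147). In males, 3 were called, and 1 to 5 when 1 library was left out. In the interaction, 0 were called, against 2 with DESeq2, 1 with the size factors of DESeq2, 1 with library size only, 1 with each of the 3 limma settings and 0 to 2 when 1 library was left out. The dispersion estimate without a design matrix, chosen after seeing the data, changed no call of the 10 genes, and the count over all genes in females was 1491, against 1496. Replicate numbers did not pair the samples, since deviations of same-numbered libraries correlated at 0.11, 0.08 and 0.18 in females and 0.02, 0.11 and −0.00 in males. With the replicate block 1 gene was called in males, 4 in females, and 2 in the interaction, and 9 in each comparison of the sexes. Values near 0 changed sign. *Ilp2* in females was −0.0082 with limma on log2(CPM + 1), with or without a filter, −0.0132 on log2(CPM + 0.1) and −0.19 to 0.17 with 1 library left out, where *Ilp3* in females ran between −0.26 and 0.0121, *Akh* in males between −0.0235 and 0.16, *Ilp3* in control flies between −0.28 and 0.0619 and *Thor* in the interaction between −0.15 and 0.0003. *Ilp3* in control flies was 0.0391 with DESeq2, 0.0319 with its size factors and 0.17 with library size only. Over all genes, 1496 were called in females, against 994, 984 and 145 with limma and 794 to 1166 with 1 library left out. In males 587 were called, against 253 with the quasi-likelihood test, 272 with the block, 275, 317 and 251 with limma and 311 to 744 with 1 library left out. In the interaction 407 were called, against 738 with DESeq2, 618 with the block, 246, 230 and 247 with limma and 61 to 568 with 1 library left out. Depth limits *Ilp5* most, with 6 counts in 1 library.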

Other observations

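Some other neuropeptide genes than those above were called with *bmm* overexpression. Of the 21 tested in males, 3 were called, all higher (median 0.19), where 4.31% of all tested genes were called. Of the 19 tested in females, 4 were called, all higher (median 0.27), where 14.3% of all tested genes were called. *Dsk*, which encodes drosulfakinin, a satiety peptide that insulin-producing cells also make, was at 31.3, 30.5 and 28.8 CPM in *bmm* overexpression males, against 21.8, 22.3 and 24.7 CPM in control males (0.39, SE 0.07, adjusted p = 0.00948). Female levels were 5.34, 5.74 and 6.01 CPM with *bmm* overexpression, against 3.24, 3.73 and 3.34 CPM in controls (0.76, SE 0.13, adjusted p = 2.91e-05). *Dsk* was thus higher in both sexes without overlap. *Nplp1* (0.48, adjusted p = 9.02e-07) and *Proc*, the proctolin gene (0.38, adjusted p = 9.01e-04), also rose in males, and *Trissin* (0.97, adjusted p = 9.55e-04), *Burs* (1.73, adjusted p = 0.00181, at under 1 CPM in each library) and *ITP* (0.24, adjusted p = 0.0429) in females. The 10 neuron markers had a median of 0.10 in males, with none called by the exact test of edgeR, and 0.19 in females, with 3 higher (*nSyb*, *Snap25* and *cpx*), and their summed level was 1570 to 1600 CPM in *bmm* overexpression males and 1374 to 1484 CPM in control males. Their part in the neuropeptide values was not tested.

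Over the 12 libraries, with each group centred on its own mean, the genes whose levels ran most like *Akh* among 12063 others were *CNMa*, a neuropeptide gene (Pearson r 0.91), *lncRNA:CR45267* (0.91) and *gig*, a TOR pathway inhibitor (0.90). For *Ilp2* they were *yip3* (0.96), *CG34384* (0.94) and *CkIIbeta2* (0.94). They are the highest of many values from libraries that share depth and preparation, and are given as a description. A gene needed only a mean of 1 CPM over the 12 libraries. It may therefore lie near the floor in some groups, where its deviations are mostly counting noise.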
